A study of Homo sapiens with 24 samples.

Results

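Aminoacyl-tRNA synthetases attach each amino acid to its transfer RNA, the step that supplies the ribosome with charged tRNAs. Most amino acids have 1 enzyme for the cytosol and another, from a separate nuclear gene, for the mitochondrion. The suffix 1 in a gene symbol marks the cytosolic enzyme and the suffix 2 the mitochondrial one, and FARSA and FARSB encode the subunits of the cytosolic phenylalanine enzyme. GARS1 and KARS1 each serve both compartments from 1 gene, and several cytosolic enzymes are held together in a multi-synthetase complex. Many cytosolic synthetase genes are known targets of ATF4, the transcription factor of the amino acid and stress response, whereas WARS1, the tryptophan enzyme, is known as a gene induced by interferon gamma. The members were the genes of the count table whose Ensembl identifier maps to a synthetase symbol on a fixed list. All 35 listed genes were present among the 14585 genes of the table, 19 of them cytosolic and 16 mitochondrial. All 35 had a mean above 5 counts in each cell line and were therefore tested.

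RNA was sequenced from A549, a human lung adenocarcinoma line with wild-type p53, and from Huh7, a human hepatocellular carcinoma line with mutant p53. The groups of each line were control and treatment with extracts of Pulsatilla chinensis, of Bupleurum chinense or of Polyporus umbellatus, at 3 libraries per group and 24 in all. The extracts were made with ethanol and taken up in DMSO, and the labels call the untreated group control without naming a vehicle, a dose or a time. The genotype label was WT in every sample, and each group rests on 1 established line. The labels do not say whether the 3 libraries came from separate cultures, so a p-value measures only the spread between these libraries, which may be technical. The 3 herbs of a line were compared with the same 3 control libraries, and where values for the 3 herbs follow each other without names they are in the order just given.

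The libraries held between 6803704 and 24345541 estimated counts, and the synthetases took between 0.319% and 0.409% of the counts of a library. Depth differed with treatment in Huh7, at 16455709 to 24345541 counts in control and 13259204 to 24340250 with P. chinensis. It was 9526159 to 11546100 with B. chinense and 7182444 to 10328734 with P. umbellatus, below every control library. What part depth had in these comparisons was not tested. The 5 A549 marker genes reported here were higher in every A549 library than in every Huh7 library. All 6 Huh7 markers, among them ALB and AFP, were higher in every Huh7 library. Replicate 2 of the Huh7 P. umbellatus group stood apart from its group for several members, and values without it are given where a result rests on it. Levels are given as CPM, the counts scaled by the TMM method to a common library size, and as CPM per kilobase of transcript where genes are compared with each other. A gene was called where the edgeR quasi-likelihood test gave a Benjamini-Hochberg adjusted p below 0.05 over all genes tested.

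In control cells the cytosolic enzymes stood above the mitochondrial ones per length of transcript. The libraries were bulk RNA, so fewer cells that hold a transcript and less of it per cell cannot be told apart. The median level in A549 was 53.8 CPM per kb over the cytosolic genes and 9.15 over the mitochondrial genes, and in Huh7 it was 65.2 and 11.5. In A549 the highest levels were those of TARS1, the threonine enzyme, at 107 ± 1.61 CPM per kb (SD, n = 3) and KARS1, the lysine enzyme, at 91.4 ± 2.79. NARS1, IARS1 and RARS1 followed at 80.5 ± 1.54, 79.9 ± 7.45 and 78.6 ± 4.53 CPM per kb, which did not differ beyond their spread. IARS2, the mitochondrial isoleucine enzyme, ranked 6 of 35 at 75.1 ± 3.21, the only mitochondrial gene among the 19 highest. In Huh7, AARS1, the alanine enzyme, led at 129.6 ± 0.623 CPM per kb, within the spread of MARS1, the methionine enzyme, at 125 ± 7.43. KARS1 stood at 114 ± 3.65 and GARS1, the glycine enzyme, at 97.9 ± 1.46, and IARS2 at 47.7 ± 1.84. The bottom of the order was held by VARS2 and CARS1 in Huh7, at 0.175 ± 0.0722 and 0.415 ± 0.0786 CPM per kb, and by VARS2 and PARS2 in A549, at 2.33 ± 0.748 and 4.12 ± 0.257.

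Between the control lines, 15 members were higher in A549 and 15 lower, where 68.6% of all genes tested in both lines were called (33.7% higher, 34.9% lower). AARS1 was lower in A549 by a log2 difference of -1.03 (SE 0.08), RARS2 by -0.97, and MARS1 and QARS1 by -0.87 each. CARS2, the mitochondrial cysteine enzyme, was higher in A549 by 1.46, TARS1 by 0.74 and YARS2 by 0.73. CARS1 differed by 3.37 on the log2 scale, but it rested on 19, 181 and 199 counts in the A549 control libraries and 27, 15 and 27 in those of Huh7. VARS2 had between 7 and 16 counts in the Huh7 control libraries and 3 or fewer in every Huh7 P. umbellatus library, so no fold change is given for it there.

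Promoter sequences are shown for the members that hold an ATF4 type element and for the serine enzymes SARS1 and SARS2, which were called in opposite directions with P. chinensis in A549. They are the 250 bases before the RefSeq start on GRCh38.p14, written 5′ to 3′ on the strand of the gene, at chr16:70289507-70289756 (minus strand) for AARS1, chr9:92293698-92293947 (minus) for IARS1, chr12:32755898-32756147 (minus) for YARS2, chr1:109213643-109213892 (plus) for SARS1 and chr19:38930764-38931013 (minus) for SARS2. Capitals mark the ATF4 type element TGATGNAA, searched on both strands. In the GENCODE annotation AARS1 starts inside its window, and so does IARS1, so those windows hold transcribed bases of longer transcripts.
AARS1: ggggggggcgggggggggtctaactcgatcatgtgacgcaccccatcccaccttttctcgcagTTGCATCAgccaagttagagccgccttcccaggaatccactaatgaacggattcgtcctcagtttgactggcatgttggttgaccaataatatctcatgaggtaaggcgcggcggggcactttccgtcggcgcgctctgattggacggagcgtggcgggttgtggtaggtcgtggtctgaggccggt
IARS1: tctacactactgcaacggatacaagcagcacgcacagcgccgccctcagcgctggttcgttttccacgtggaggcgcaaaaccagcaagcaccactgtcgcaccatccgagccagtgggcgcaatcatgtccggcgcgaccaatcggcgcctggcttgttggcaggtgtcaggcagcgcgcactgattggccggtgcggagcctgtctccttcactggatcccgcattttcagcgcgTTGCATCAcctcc
YARS2: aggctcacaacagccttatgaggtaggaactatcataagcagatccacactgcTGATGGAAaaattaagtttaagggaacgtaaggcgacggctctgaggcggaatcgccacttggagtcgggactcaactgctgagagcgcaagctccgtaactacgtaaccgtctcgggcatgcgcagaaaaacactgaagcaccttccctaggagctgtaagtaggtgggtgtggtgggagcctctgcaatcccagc
SARS1: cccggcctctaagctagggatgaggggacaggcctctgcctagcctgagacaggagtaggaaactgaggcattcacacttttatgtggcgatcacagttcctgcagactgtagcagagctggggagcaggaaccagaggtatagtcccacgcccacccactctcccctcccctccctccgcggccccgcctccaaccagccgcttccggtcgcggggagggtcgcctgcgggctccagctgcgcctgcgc
SARS2: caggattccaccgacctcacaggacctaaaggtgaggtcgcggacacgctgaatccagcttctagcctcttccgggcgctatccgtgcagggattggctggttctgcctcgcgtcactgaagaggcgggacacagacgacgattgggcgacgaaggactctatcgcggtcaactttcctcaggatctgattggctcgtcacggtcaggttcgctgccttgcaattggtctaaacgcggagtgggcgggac

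The element began at position -187 in AARS1, -13 in IARS1 and -197 in YARS2, counted from the RefSeq start. It was present in 3 of the 30 members matched to a promoter and in 1.62% of 11758 promoters. The palindromic E-box CACGTG was present in 3 of 30 members and 8.62% of promoters, and CCAAT in 16 of 30 and 34.96%. The ETS type element CCGGAAG was present in 13 of 30 and 14.8% of promoters, SARS1 and SARS2 among them. HARS1 and HARS2 lie on opposite strands with overlapping windows, and the same ETS sites were counted for each of them. AARS1 was called lower in all 6 comparisons with control. IARS1 was called lower with P. chinensis in both lines and with B. chinense in A549. Without a call it stood at -0.23 with P. umbellatus in A549, and in Huh7 at -0.35 with B. chinense and 0.16 with P. umbellatus. YARS2 was called in none of the 6, with log2 fold changes from -0.20 to -0.06. MARS1, called lower in all 6, had no such element in its window. YARS1, also called lower in all 6, was not searched. It had no matched promoter, and neither had LARS1, VARS1, AARS2 and VARS2.

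The summed level of the cytosolic enzymes was below control in every treated library of both lines. In A549 it was 3116 ± 29.0 CPM (SD, n = 3) in control and 2759.7 ± 24.1, 2705 ± 46.4 and 2845 ± 3.12 with the 3 herbs. In Huh7 it was 3538 ± 27.7 in control and 2698 ± 50.8, 2961 ± 64.0 and 3298 ± 159. The largest of these differences was that of P. chinensis in Huh7, at -23.7%, against -11.4% in A549. The mitochondrial sum differed by -12.8% with P. chinensis in Huh7 and by -1.93% with B. chinense there, against -23.7% and -16.3% for the cytosolic sum. In A549 the differences of the 2 classes were close, at -11.4% and -12.5% with P. chinensis. No test was made on these sums, which are led by the most abundant genes. The median log2 fold change with P. chinensis in Huh7 was -0.21 over the cytosolic and -0.18 over the mitochondrial members. After a correction for GC content and length these medians were -0.18 and -0.22, so their order turned.

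**Figure D1:**
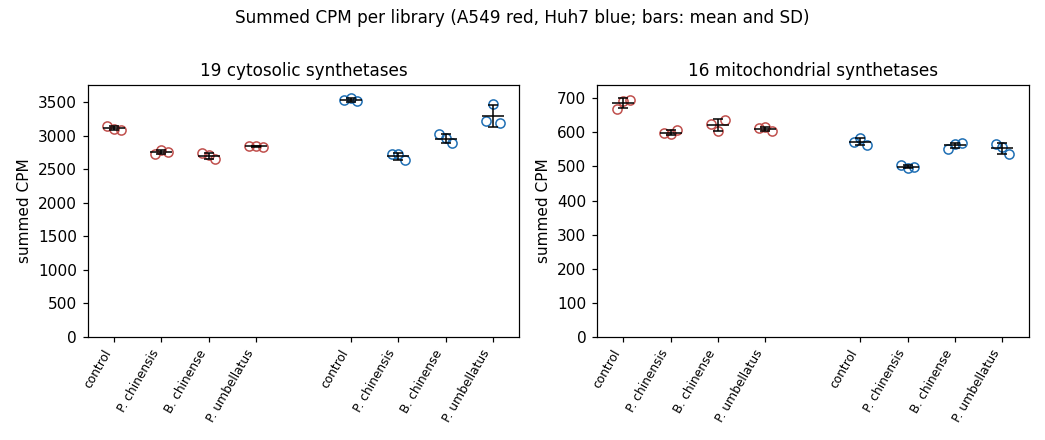
Summed CPM of the 19 cytosolic and the 16 mitochondrial synthetases (y axis) in each library, by line and treatment (x axis), as open points with the mean and SD of each group (n = 3) in black. The cytosolic sum of the 3 Huh7 P. chinensis libraries lay between 2639.9 and 2731 CPM, below the 3514 to 3568 of the control libraries, and the mitochondrial sums lay between 496 and 505 against 563 to 583.

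In each of the 6 comparisons with control more members were called lower than higher. The median log2 fold change of the cytosolic members was below 0 in 5 of the 6 comparisons with control, between -0.23 and -0.12, and was 0.01 with P. umbellatus in Huh7, where it turned to -0.09 after a correction for GC content and length. That of the mitochondrial members lay between -0.18 and -0.06 (with P. umbellatus in Huh7 -0.12 with VARS2 at its bound of 3 counts per library, and -0.11 without VARS2), beside medians between -0.01 and 0.03 over all genes tested. No mitochondrial member was up-regulated in any of the 6 comparisons. Upper quartile in place of TMM scaling raised the share of higher genes among all called genes, from 48.0% to 60.5% with P. chinensis and from 46.7% to 58.6% with B. chinense in A549, and from 49.98% to 61.1% with P. chinensis in Huh7, while the cytosolic medians stayed below 0 there.

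**Figure D2:**
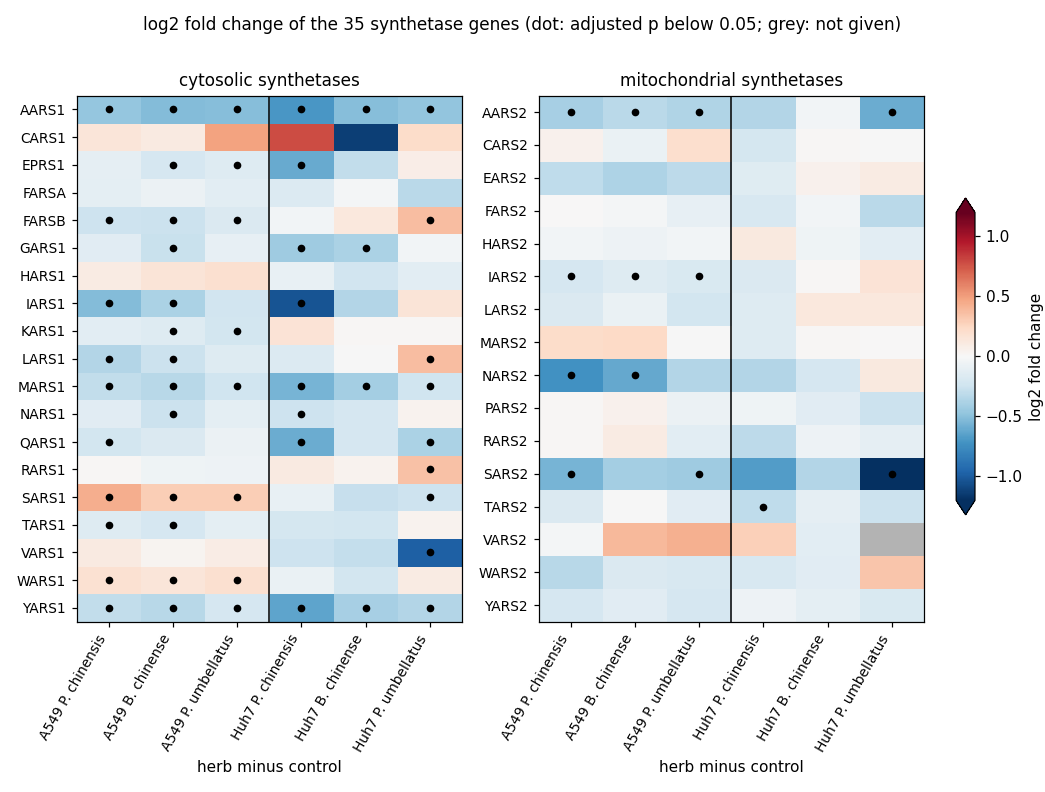
Log2 fold change against control (colour) of the 35 synthetases (cytosolic in the left panel, mitochondrial in the right) with each herb in A549 and Huh7 (columns), where a dot marks a called gene and grey the VARS2 value that is not given. AARS1, MARS1 and YARS1 were called lower in every column, while SARS1 and WARS1 were called higher in the 3 A549 columns only, with 0.43 and 0.18 for P. chinensis. By the interaction test the lines differed for SARS1 with each herb and for WARS1 with P. chinensis and B. chinense, and WARS1 had no such call with P. umbellatus.

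In A549, P. chinensis up-regulated 2 and down-regulated 12 of the 35 members, that is 2 and 8 of the cytosolic and 0 and 4 of the mitochondrial ones. Over all genes tested 32.8% were called, 15.7% higher and 17.1% lower. Of the members, 16 had all 3 libraries below all control libraries, where 22.6% of all genes did. AARS1 was called lower with each of the 3 herbs. Its level was 225, 209.8 and 219.9 CPM in the control libraries and 152, 167 and 157 with P. chinensis. The groups did not overlap, and the log2 fold change was -0.46 (SE 0.08, adjusted p = 0.000396, edgeR). IARS1, the cytosolic isoleucine enzyme, stood at 396, 345 and 334 CPM in control and at 271, 240.0 and 237 with P. chinensis. These were again apart, and the log2 fold change was -0.52 (SE 0.13, adjusted p = 0.00672). LARS1, the leucine enzyme, fell by 0.35 on the log2 scale (adjusted p = 0.00394).

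Among the mitochondrial enzymes of A549, P. chinensis down-regulated NARS2, SARS2, AARS2 and IARS2, which charge asparagine, serine, alanine and isoleucine tRNAs. NARS2 was at 28.4, 16.03 and 23.5 CPM in control and at 13.9, 15.2 and 11.6 with P. chinensis. Control replicate 2 lay just above the treated libraries, and the log2 fold change was -0.73 (SE 0.19, adjusted p = 0.00848). SARS2 was at 36.5, 44.5 and 48.2 CPM in control and at 26.0, 28.6 and 33.1 with the extract, without overlap (-0.56, SE 0.15, adjusted p = 0.0117). AARS2 was at 31.7, 33.2 and 31.5 CPM in control and at 24.6, 25.3 and 23.0 (-0.40, SE 0.10, adjusted p = 0.00655).

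SARS1, the cytosolic serine enzyme, went the other way in A549. It stood at 54.1, 61.8 and 54.9 CPM in control, at 78.7, 75.4 and 76.9 with P. chinensis, at 67.3, 71.1 and 71.8 with B. chinense and at 72.8, 66.6 and 69.6 with P. umbellatus. Every treated library was above every control library. The log2 fold changes were 0.43 (SE 0.07, adjusted p = 0.00018), 0.30 (adjusted p = 0.00467) and 0.29 (adjusted p = 0.00469). WARS1 was at 122, 119.6 and 122 CPM in control and at 138, 136 and 139 with P. chinensis, a small rise of 0.18 (SE 0.04, adjusted p = 0.0049) that B. chinense (0.14, adjusted p = 0.0235) and P. umbellatus (0.19, adjusted p = 0.00425) also gave. Leaving out each of the 12 A549 libraries in turn kept 11 of the 14 calls of P. chinensis. SARS2 was lost without control replicate 3 (adjusted p = 0.0559) or P. chinensis replicate 1, TARS1 without the latter (0.0619), and QARS1 without control replicate 2 or 3 (up to 0.0937) or P. chinensis replicate 2 or 3.

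**Figure D3:**
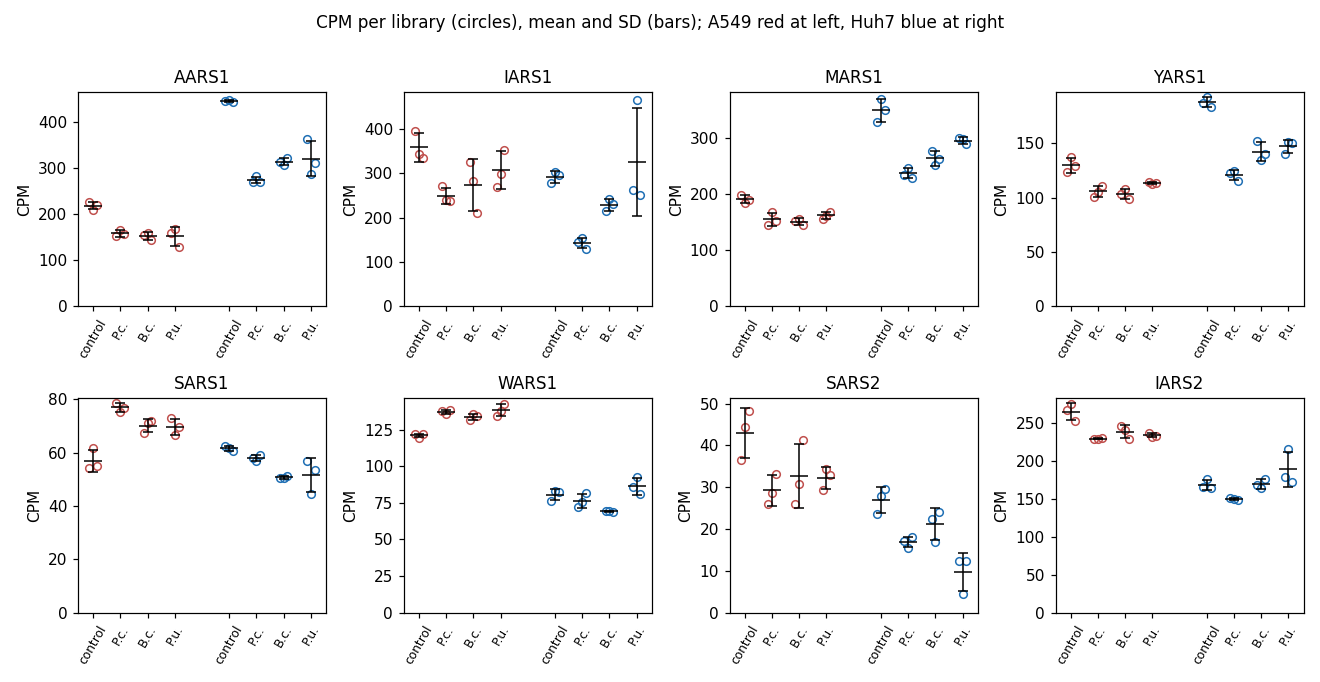
CPM (y axis) of AARS1, IARS1, MARS1, YARS1, SARS1, WARS1, SARS2 and IARS2 in each of the 24 libraries, by line and treatment (x axis), as open points with the mean and SD of each group (n = 3) in black. In Huh7, AARS1 lay at 446, 448 and 443 CPM in control and at 270.4, 282 and 270.0 with P. chinensis, and SARS1 in A549 rose from 54.1, 61.8 and 54.9 to 78.7, 75.4 and 76.9.

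B. chinense up-regulated 2 and down-regulated 14 members in A549, 11 of the latter cytosolic and 3 mitochondrial, beside 28.1% of all genes called (13.1% higher, 15.0% lower). Of the members, 15 had all 3 libraries below the control libraries, where 21.4% of all genes did. AARS1 was at 154, 159 and 143 CPM, below all control libraries (-0.52, SE 0.08, adjusted p = 0.000212). MARS1 was at 198, 184 and 189 CPM in control and at 153, 156 and 144, and YARS1, the tyrosine enzyme, at 124, 137 and 129 against 103, 107.7 and 98.7. Both fell by 0.33 on the log2 scale without overlap. IARS1 was at 327, 284 and 211 CPM, also below control, but with a wide spread (-0.38, SE 0.13, adjusted p = 0.042). NARS2 was at 15.99, 12.2 and 15.9 CPM, just below the lowest control library at 16.03 (-0.61, SE 0.19, adjusted p = 0.0267). Without control replicate 1 the adjusted p was 0.148 for IARS1 and 0.126 for NARS2. NARS2 was also lost without control replicate 3 or B. chinense replicate 2, and IARS1 without control replicate 2 or replicate 2 or 3 of B. chinense, or replicate 2 of either other herb. In all, 7 of the 16 calls were lost without 1 library or another, and those of AARS1, MARS1 and YARS1 were kept.

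P. umbellatus up-regulated 2 members in A549 and down-regulated 9, 6 cytosolic and 3 mitochondrial, beside 28.2% of all genes called (13.4% higher, 14.8% lower), and 13 had all 3 libraries below control, as did 21.7% of all genes. AARS1 was at 159.5, 168 and 129 CPM, below the control libraries (-0.51, adjusted p = 0.000197). SARS2 was at 29.3, 34.4 and 32.9 CPM, below control (-0.42, SE 0.15, adjusted p = 0.0491), and this call was lost without any of 8 of the 12 libraries. IARS2 fell by 0.18 on the log2 scale and AARS2 by 0.36 (adjusted p = 0.0142), and the call of AARS2 was lost without control replicate 2 or P. umbellatus replicate 2 (-0.26, adjusted p = 0.0676 for the latter). IARS1 had a log2 fold change of -0.23 and was not called.

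In Huh7, P. chinensis down-regulated 9 members and up-regulated none, 8 of them cytosolic and TARS2 the mitochondrial one, beside 20.9% of all genes called (10.4% higher, 10.5% lower). Of the 35 members, 30 had a log2 fold change below 0 and 17 had all 3 libraries below the control libraries, where 26.6% of all genes did. IARS1 fell most among the called members. It stood at 277, 303 and 296 CPM in control and at 144, 153 and 130.1 with P. chinensis, far from overlap. Its log2 fold change was -1.03 (SE 0.18, adjusted p = 0.00185), a difference of -51.1%. AARS1 was at 446, 448 and 443 CPM in control and at 270.4, 282 and 270.0 (-0.70, SE 0.08, adjusted p = 5.45e-05). YARS1 was at 187, 192 and 183 CPM in control and at 122, 125 and 115 (-0.63, SE 0.07, adjusted p = 4.23e-05).

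The remaining cytosolic calls of P. chinensis in Huh7 were EPRS1, which carries the glutamate and proline enzymes on 1 protein, QARS1, the glutamine enzyme, MARS1, GARS1 and NARS1. EPRS1 was at 350.0, 371 and 348 CPM in control and at 241, 237 and 224 (-0.61, SE 0.09, adjusted p = 0.000372), and QARS1 at 200.1, 206 and 196 against 135, 129 and 135 (-0.59, SE 0.09, adjusted p = 0.00061). MARS1 was at 328, 369 and 349 CPM in control and at 235, 247 and 229 (-0.56, SE 0.06, adjusted p = 8.72e-05). In none of these genes did the groups overlap. The mitochondrial partners of the called genes were not called: IARS2 was at 166, 176 and 164 CPM in control and 151, 149 and 148 with the extract, and AARS2 had a log2 fold change of -0.36. TARS2, the mitochondrial threonine enzyme, fell from 35.02, 38.1 and 36.9 CPM to 28.6, 29.7 and 30.8 (-0.30, SE 0.09, adjusted p = 0.0377). Its call and that of NARS1 were lost without any 1 of the 6 control and P. chinensis libraries, with adjusted p up to 0.115 and 0.158, and the other 7 were kept without each of the 12.

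With B. chinense in Huh7, 4 members were called, all cytosolic and down-regulated, where 1.28% of all genes were called (0.519% higher, 0.757% lower). They were AARS1, MARS1, YARS1 and GARS1. AARS1 was at 313, 306 and 321 CPM, below all control libraries (-0.51, SE 0.08, adjusted p = 0.00656). MARS1 was at 277, 251 and 262 CPM (-0.41, adjusted p = 0.00984), YARS1 at 152, 134 and 139.8 (-0.40, adjusted p = 0.0114) and GARS1 at 183, 186 and 181 against 238, 243 and 236 in control (-0.38, adjusted p = 0.0129). All 4 were separated from control, as were 12 of the 35 members on the low side, beside 15.4% of all genes. Only AARS1 kept its call without each library in turn. GARS1 was lost without any 1 of the 6 control and B. chinense libraries (adjusted p up to 0.069). YARS1 was lost without any 1 control library or B. chinense replicate 2 or 3 (up to 0.0642), and MARS1 without control replicate 2 or 3 or B. chinense replicate 2 (up to 0.0598). With only the control and B. chinense libraries fitted, 11 members were lower, beside 400 genes higher and 717 lower of all 13784. The median log2 fold change was -0.23 over the cytosolic and -0.06 over the mitochondrial members.

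P. umbellatus in Huh7 up-regulated 3 members and down-regulated 8, beside 37.0% of all genes called (19.3% higher, 17.8% lower), and 11 had all 3 libraries below control, as did 23.6% of all genes. The lower ones were SARS2, VARS1, AARS2, AARS1, QARS1, YARS1, SARS1 and MARS1 and the higher ones RARS1, FARSB and LARS1, the arginine, phenylalanine and leucine enzymes. SARS2 was at 23.5, 27.8 and 29.6 CPM in control and at 12.3, 4.47 and 12.4 with P. umbellatus. The groups did not overlap, and the log2 fold change was -1.44 (SE 0.27, adjusted p = 0.0027), or -1.12 (adjusted p = 0.00041) without replicate 2, its lowest library. AARS1 was at 363, 287 and 311 CPM, below control (-0.48, SE 0.08, adjusted p = 0.00134). AARS2 was at 53.7, 51.3 and 50.3 CPM in control and at 39.4, 23.5 and 38.9, without overlap (-0.60, SE 0.15, adjusted p = 0.0113), or -0.40 (adjusted p = 0.0041) without replicate 2. VARS1, the valine enzyme, was at 229, 166 and 194 CPM in control and at 75.5, 49.4 and 173 with the extract, so the groups overlapped, and its call (-0.98, SE 0.35, adjusted p = 0.0439) was lost without any of 11 of the 12 libraries. FARSB rose from 119.6, 112 and 109.5 CPM to 128, 177 and 137 (0.37, adjusted p = 0.0196) and LARS1 from 86.4, 94.4 and 93.7 to 116, 134 and 107 (0.37, adjusted p = 0.0105). Both rises were without overlap. The call of FARSB was lost without control replicate 2 or 3 (adjusted p up to 0.0748), and those of RARS1 and SARS1 without any 1 control library (up to 0.0863 and 0.0967) or without P. chinensis replicate 1 and 3 respectively, which share the fit. Without P. umbellatus replicate 2 the values were 0.22 for FARSB, 0.18 for RARS1 and -0.16 for SARS1, each still called in the fit of all Huh7 groups. With only the control and P. umbellatus libraries fitted, FARSB, RARS1, LARS1, VARS1, AARS2, QARS1, SARS1 and MARS1 lost their calls. Over all 13724 genes that fit called 539 higher and 719 lower.

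The changes with P. umbellatus in Huh7 moved with base composition. Across the 34 members other than VARS2, Spearman's rho of the log2 fold change with the GC content of the transcript was -0.79, and across all genes tested -0.67. In the other 5 comparisons with control it lay between -0.24 and 0.20 over the members. These points are genes of the same libraries and not independent. When each library was corrected for GC content and transcript length, AARS1 (-0.34, adjusted p = 0.000575), YARS1 (-0.27, adjusted p = 0.007) and SARS2 (-0.85, adjusted p = 0.00595) kept their calls, and the other 8 lost theirs. RARS1, FARSB and LARS1 then stood at 0.10, 0.06 and 0.10. What part GC content had in the values of these genes was not tested further.

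**Figure D4:**
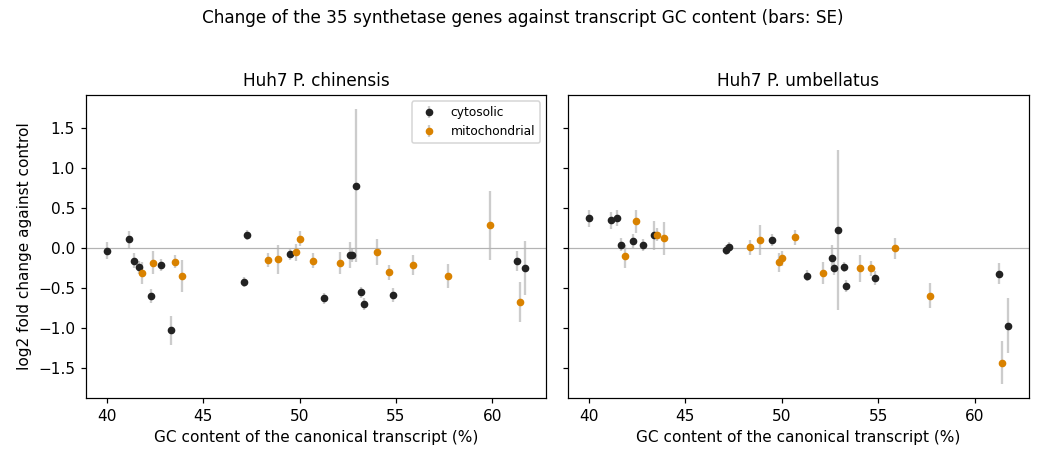
Log2 fold change against control (y axis) of the 35 synthetases by GC content of the transcript in percent (x axis), for P. chinensis and P. umbellatus in Huh7, with cytosolic genes in black, mitochondrial genes in orange and the SE as bars. VARS2 is left out of the P. umbellatus panel. Spearman's rho was -0.79 over the 34 genes with P. umbellatus and -0.11 over the 35 with P. chinensis.

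P. chinensis was also compared with the mean of the other herbs in the same line. In A549 no member was called by edgeR, beside 3.57% of all genes (1.15% higher, 2.42% lower). At an unadjusted p below 0.05, 1 member was higher and 0 lower, where 17.3% of all genes passed. DESeq2 also called 0 members. In Huh7, 11 members were lower and 0 higher, beside 21.7% of all genes called (9.69% higher, 12.1% lower). With upper quartile scaling the share of higher genes among all called genes was 55.4% against 44.5%. IARS1 was lower by a log2 difference of -0.94 (SE 0.17, adjusted p = 0.00236) and EPRS1 by -0.50 (SE 0.08, adjusted p = 0.000988). Of these libraries, IARS1 stood at 216, 242 and 230.1 CPM with B. chinense and at 262, 466 and 251 with P. umbellatus, all above the 144, 153 and 130.1 of P. chinensis. These were the 2 calls kept without each library in turn, and the smallest difference of IARS1 among those runs was -0.76, without P. umbellatus replicate 2. The other 9 calls, among them LARS1 (-0.35), LARS2 (-0.29) and IARS2 (-0.26), were lost without at least 1 library.

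For 13 amino acids the table held both a cytosolic and a mitochondrial enzyme of the "1" and "2" kind. The cytosolic gene had the lower log2 fold change in 10 of 13 pairs with B. chinense and 7 of 13 with P. chinensis in Huh7, and in 5 of the 12 without VARS2 with P. umbellatus. The 10 pairs include those of cysteine and valine, whose genes CARS1 and VARS2 had the lowest levels in Huh7. CARS1 stood there, without a call, at 0.78 with P. chinensis and -1.13 with B. chinense. In A549 it did so in 5, 8 and 5 pairs with the 3 herbs. The serine genes were far apart. SARS1 and SARS2 had log2 fold changes of 0.43 and -0.56 with P. chinensis in A549 and of -0.25 and -1.44 with P. umbellatus in Huh7. For alanine both genes fell in A549 with P. chinensis, AARS1 by 0.46 and AARS2 by 0.40 on the log2 scale. In Huh7 AARS1 fell by 0.70, and AARS2 had no call but, at -0.36, stood near its A549 value. The response of AARS2 to P. chinensis had no call of a difference between the lines. For isoleucine the values with P. chinensis in Huh7 were -1.03 for IARS1 and, with no call, -0.17 for IARS2. SARS2 shares 15360 bases on the same strand with another annotated gene that was not analysed here, so its reads may be divided between them. MARS1 overlaps DDIT3 by 982 bases on the opposite strand, and whether the counting used strand is not given in the sources used here.

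The response of the lines differed for several members by the interaction of line and herb over 24 libraries. With P. chinensis 8 members were higher and 1 lower in A549 relative to Huh7, beside 19.6% of all genes called (10.3% higher, 9.3% lower). SARS1 differed by 0.58 on the log2 scale (SE 0.10, adjusted p = 0.000312), and the fits of each line gave 0.43 in A549 and -0.09 in Huh7. EPRS1 differed by 0.55 (adjusted p = 0.000223), QARS1 by 0.42 (0.0101) and YARS1 by 0.39 (0.00165), each with the lower value in Huh7. These 4 were kept without each of the 24 libraries in turn. KARS1 was the lower one (-0.24, adjusted p = 0.0364) and was lost without replicate 1 or 2 of A549 control or of A549 P. chinensis, or Huh7 control replicate 1. MARS2, at 0.43 (adjusted p = 0.0426), was lost without any of 15 libraries. WARS1, at 0.31 (adjusted p = 0.00735), was lost without Huh7 control replicate 2 or 3 or Huh7 P. chinensis replicate 1 (adjusted p up to 0.0646).

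With B. chinense, SARS1 (0.62, adjusted p = 0.000362) and WARS1 (0.40, adjusted p = 0.00183) differed, beside 11.6% of all genes called (5.8% higher, 5.79% lower). SARS1 was at 50.5, 50.5 and 51.4 CPM in treated Huh7 cells against 62.6, 61.6 and 60.6 in control, below each control library, though its log2 fold change of -0.28 was not called. WARS1 was at 69.4, 69.5 and 69.0 CPM there against 76.0, 83.3 and 82.6, again with no overlap and no call (-0.22). Both calls of the difference were kept without each library.

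With P. umbellatus 5 members were higher in A549 relative to Huh7 and 3 lower, beside 34.4% of all genes called (19.1% higher, 15.3% lower). VARS1 differed by 1.14 (adjusted p = 0.0252), SARS2 by 1.09 (adjusted p = 0.0111), SARS1 by 0.62 (adjusted p = 0.000138) and QARS1 by 0.39 (adjusted p = 0.0113). FARSB and LARS1 differed by -0.47 (adjusted p = 0.00478) and -0.45 (adjusted p = 0.0103), and IARS2 by -0.26 (adjusted p = 0.027). SARS1 thus differed between the lines with each of the 3 herbs. WARS1 was not called there (0.18, adjusted p = 0.0977). VARS1 was lost without replicate 1 of A549 control or Huh7 control or replicate 1 or 2 of Huh7 P. umbellatus (adjusted p up to 0.0712), with values of 0.78 without replicate 2 and 1.77 without replicate 3 of the last group. IARS2 was lost without A549 control replicate 1 or 2 or A549 P. umbellatus replicate 3 (up to 0.0667), and YARS1, the remaining higher member, without any of 17 libraries. QARS1 kept its call but stood at 0.23 without Huh7 P. umbellatus replicate 2. With the correction for GC content and length SARS1 alone of the 8 kept its call (0.45, adjusted p = 0.000228), and FARSA, not called before, was called lower (-0.37).

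**Figure D5:**
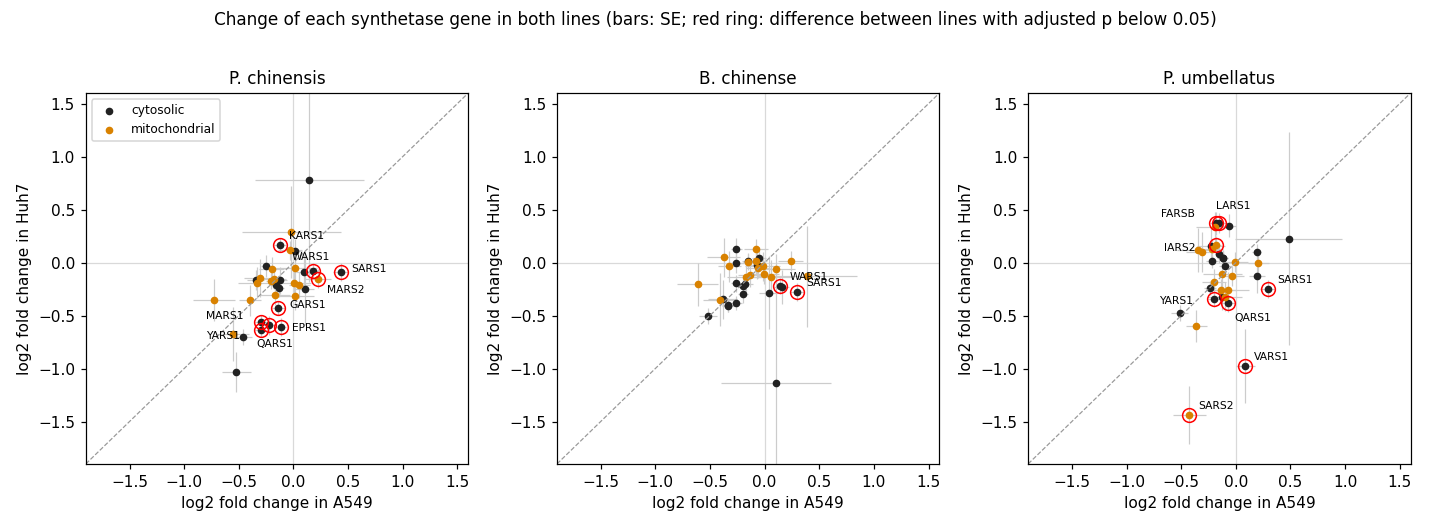
Log2 fold change against control in Huh7 (y axis) by that in A549 (x axis) for the 35 synthetases, 1 panel per herb, with the SE as bars and with red rings and names for members whose response differed between the lines by the interaction. VARS2 is left out of the P. umbellatus panel. SARS1 lay at 0.43 in A549 and -0.09 in Huh7 with P. chinensis, with a difference of 0.58.

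The counts of called genes in the other gene lists stand beside shares of all genes called of 32.8%, 28.1% and 28.2% in A549 and 20.9%, 1.28% and 37.0% in Huh7, in the order P. chinensis, then B. chinense, then P. umbellatus. Several lists hold between 3 and 8 genes, and no test of a list against all genes was made. With P. umbellatus in Huh7, Spearman's rho of the log2 fold change with GC content was -0.67 over all genes tested. Calls over all genes there were 2674 higher and 2464 lower in the main fit. They were 1340 and 1350 with the correction for GC content and length, and 539 and 719 with only the groups compared. List calls are from the main fit, and how they move with these settings is not given here.

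The multi-synthetase complex holds EPRS1, IARS1, KARS1, LARS1, MARS1, QARS1 and RARS1 with the scaffold proteins AIMP1, AIMP2 and EEF1E1. Of these 7 enzymes, P. chinensis called 4 lower in A549 (median log2 fold change -0.22) and 4 in Huh7 (-0.56), and the 12 other cytosolic members had 4 lower in each line (-0.13 and -0.19), with 2 higher in A549. B. chinense called 5 of the 7 lower in A549 and 1 in Huh7. With P. umbellatus 3 were lower in A549, and 2 were higher and 2 lower in Huh7. Among the scaffold genes EEF1E1 fell with each herb in A549, by 0.35, 0.34 and 0.36 on the log2 scale, and AIMP2 fell with P. chinensis and B. chinense (-0.28 and -0.27). None of the 3 was called in Huh7.

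The list of 26 genes of the ATF4 response, which contains no synthetase, had calls in both directions. Of its genes 69.2%, 65.4% and 61.5% were called in A549 with the 3 herbs, and 73.1%, 23.1% and 57.7% in Huh7. With P. chinensis 6 were higher and 12 lower in A549 (median -0.28) and 5 and 14 in Huh7 (-0.45). B. chinense raised 5 and lowered 12 in A549 (-0.28) and 0 and 6 in Huh7 (-0.30). P. umbellatus raised 5 and lowered 11 in A549 (-0.17) and 2 and 13 in Huh7 (-0.31). ASNS, asparagine synthetase, and PSAT1, an enzyme of serine synthesis, were called lower in all 6 comparisons, with ASNS at -1.08 (SE 0.10) and PSAT1 at -1.12 (SE 0.09) with P. chinensis in Huh7. ASNS was at 163.7, 187.8 and 182.3 CPM in control and at 84.7, 83.8 and 83.1 there. ATF4 itself was down-regulated in A549 by P. chinensis (-0.34), B. chinense (-0.52) and P. umbellatus (-0.38), and in Huh7 by P. umbellatus (-0.31). ATF3, a stress-induced factor, rose by 3.003, 1.89 and 1.67 on the log2 scale in A549 and in Huh7 by 1.82 with P. chinensis and 0.64 with P. umbellatus, and was at 0.63 with no call with B. chinense. SESN2, which restrains mTORC1 when leucine is low, rose by 1.69, 1.39 and 1.15 in A549 and in Huh7 by 0.53 with P. chinensis, and fell by 0.52 with P. umbellatus.

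Of the 6 genes for the eIF2 kinases and phosphatase, 1 was higher with each herb in A549 and 3, 2 and 1 were lower. In Huh7, 0, 0 and 4 were higher and 1, 0 and 1 lower. EIF2AK4 encodes GCN2, the kinase that senses uncharged tRNA, and it rose in A549 by 0.37, 0.21 and 0.31 on the log2 scale. In Huh7 it was at -0.03, 0.07 and, with a call, 0.29. Of 5 tested genes of the interferon gamma list, 2, 3 and 3 were higher and 0 lower in A549 with the 3 herbs, with IRF1 at 1.15, 0.94 and 0.82 and TAP1 at 1.44, 1.37 and 1.29. In Huh7, 2, 0 and 0 were higher and 1, 1 and 0 lower, with IRF1 at 1.24, 0.30 and -0.17, of which the first was called.

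Of the 8 tested genes of amino acid sensing and MYC, 4, 5 and 4 were higher in A549 and 1 was lower with each herb. SESN1 rose by 1.68, 1.48 and 1.27 and RRAGD, a GTPase of the mTORC1 pathway, by 1.26, 0.92 and 0.72, while MYC fell by 0.26, 0.25 and 0.24. In Huh7, 1 was higher in each and 2, 1 and 1 lower, with RRAGC higher at 1.26, 0.69 and 0.95 and MYCN lower at -1.64, -0.55 and -0.89. Of 6 cytosolic elongation factors, 2, 1 and 1 were lower in A549 and 0, 0 and 3 in Huh7, EEF1D at -0.91 among the 3. Of 6 mitochondrial factors, TSFM was lower in A549 with P. chinensis (-0.39) and TSFM and TUFM in Huh7 with P. umbellatus (-0.56 and -0.44), while GFM2 was higher with B. chinense in A549 (0.21). Of 4 genes for mitochondrial glutaminyl-tRNA and initiator formylation, QRSL1 was lower in A549 with each herb (-0.38, -0.39 and -0.44), and GATC was higher in Huh7 with P. umbellatus (0.43).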

How the data were processed

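RNA of 24 samples of A549 and Huh7 cells was sequenced as stranded, ribosome-depleted total RNA. Per the paper's methods and the labels, the authors quantified reads with kallisto on Ensembl GRCh38.p13 cDNA and restricted the table to protein-coding genes averaging over 5 counts. The deposited values are the authors' estimated counts, in whole numbers and not scaled for library size. How transcripts were summed and rounded per gene is not given in the sources used here. The study's own tests used DESeq2.

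The members and lists were chosen with earlier results of these data known. Identifiers were matched to symbols for 14584 of 14585 genes. In each line, genes with a mean above 5 counts (13634 in A549, 13876 in Huh7) were scaled by TMM and tested over its 12 libraries with the quasi-likelihood F test of edgeR 4.0.16 in R 4.3.3 (1 coefficient per group, prior count 2, two-sided, Benjamini-Hochberg threshold 0.05). The interaction of line and herb used 24 libraries and 12925 genes. The standard error was the log2 fold change over the square root of F. Named were, per comparison and class, up to 3 largest rises and falls among called members with a mean of at least 50 counts, with their partner of the other class, and up to 4 per direction of an interaction. Medians, counts, promoter elements and other called members are descriptions, and values of members outside this rule, among them IARS1 in A549 P. umbellatus, were added after seeing them. Transcript length and GC came from GENCODE v44 (GRCh38), and promoters from RefSeq (GRCh38.p14). Library totals of 6803704 to 24345541 set the precision, which was taken from the spread between libraries. Alternatives were DESeq2 1.42.0, RLE and upper quartile scaling, no filter, a mean over 50 counts, only the groups compared, the replicate number as a block, a loess correction for GC and length (span 0.3), and each library left out. The pipeline was tested on simulated data. The lists of related genes were complex scaffold, ATF4 response, eIF2 kinases and phosphatase, interferon gamma response, amino acid sensing and MYC, cytosolic elongation factors, mitochondrial factors, and mitochondrial glutaminyl-tRNA and formylation. Of the A549 marker genes listed for checking the lines, 1 is not reported here.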

Additional observations from a re-analysis of the deposited data

Results flagged for a closer look

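Several synthetases were singled out because their response to 1 herb differed between A549 and Huh7 by the interaction test of edgeR (Benjamini-Hochberg adjusted p below 0.05). Values are the log2 fold change in A549 minus that in Huh7. With P. chinensis the difference was 0.58 for SARS1, 0.55 for EPRS1, 0.43 for MARS2, 0.42 for QARS1 and -0.24 for KARS1. With B. chinense it was 0.62 for SARS1 and 0.40 for WARS1. With P. umbellatus it was 1.14 for VARS1, 1.09 for SARS2, 0.62 for SARS1, 0.39 for QARS1, -0.47 for FARSB, -0.45 for LARS1 and -0.26 for IARS2. Of these 7, SARS1 alone kept its call with the correction for GC content and length, and VARS1 and IARS2 also lost theirs without any of 4 and 3 single libraries. With P. chinensis KARS1 was lost without any of 5 and MARS2 without any of 15. The control libraries of each line are shared by its 3 herbs. No explanation of these differences was tested.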

How the results depend on the processing

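Each value was recomputed with 8 alternative settings and with each library left out. Medians are of log2 fold changes, and the cause of each shift was not tested. Correction for GC content and length turned the direction, with a new call, of EPRS1 (-0.17), FARSA (0.31), NARS1 (-0.21) and TARS1 (-0.17) with P. umbellatus in Huh7, of FARSA for P. chinensis against the other herbs in Huh7 (-0.31) and of FARSA in the P. umbellatus difference between lines (-0.37). With it, 1 member was higher with P. umbellatus in Huh7 (FARSA, while RARS1, FARSB and LARS1 lost their calls), 8 were lower with B. chinense in Huh7, 1 was higher (SARS1) and 1 lower (FARSA) in the P. umbellatus difference between lines, 0 lower in that of P. chinensis and 1 lower in that of B. chinense. Over all 13876 genes the correction gave 338 higher and 502 lower with B. chinense in Huh7, and 1340 higher and 1350 lower with P. umbellatus there. Its cytosolic medians were -0.18 for B. chinense and -0.075 for P. umbellatus in A549, and -0.18 for P. chinensis and -0.089 for P. umbellatus in Huh7, with a mitochondrial median of -0.22 for P. chinensis in Huh7.

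Upper quartile scaling gave cytosolic medians of -0.066, -0.14 and -0.078 in A549 with 9 members lower for B. chinense. In Huh7 it gave -0.16 and a mitochondrial -0.13 for P. chinensis, a mitochondrial -0.035 for B. chinense, 1 member higher with P. chinensis and 2 higher against the other herbs. DESeq2 called 1 higher with P. chinensis in Huh7 and 1 higher against the other herbs, and 1 and 5 lower in the differences between lines for B. chinense and P. umbellatus. Fitting only the groups compared gave in Huh7 2 higher and 14 lower with P. chinensis, 11 lower with B. chinense, 0 higher and 3 lower with P. umbellatus (cytosolic median -0.022) and 6 lower against the other herbs. The calls over all genes moved too. They were 2879 higher and 3013 lower of 13992 with P. chinensis (main fit 1450 and 1451). With B. chinense they were 400 and 717 of 13784 (main 72 and 105). With P. umbellatus they were 539 and 719 of 13724 (main 2674 and 2464), and against the other herbs 847 and 1085 of 13839 (main 1344 and 1674). Between lines the fit of only the groups compared gave 2 lower for P. chinensis, 1 lower for B. chinense and 2 higher for P. umbellatus. Over all genes these were 2126 lower of 13022, 1229 lower of 12696 and 1482 higher of 12776. A mean over 50 counts gave a cytosolic median of -0.18 for B. chinense in A549 and -0.048 for P. umbellatus in Huh7, a mitochondrial -0.047 for B. chinense in Huh7 and 2 higher against the other herbs. No filter gave -0.18 for the cytosolic B. chinense median in A549 and 0 lower in the P. chinensis difference between lines.

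The replicate number as a block gave a cytosolic median of -0.030 with P. umbellatus in Huh7 and 0 lower in the P. chinensis difference between lines, and moved no other count of calls by over 1.5 times. Same-numbered libraries of different groups had correlations of -0.0713 to 0.0847, and differently numbered ones -0.0755 to 0.0847, over all genes tested. No pairing by number was visible in these values, but noise at low counts could hide a weak one, and the labels do not settle it.

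Leaving out each library gave these ranges. With P. chinensis in A549, 2 to 3 members were higher and 10 to 13 lower, with a cytosolic median of -0.16 to -0.13 and a mitochondrial one of -0.20 to -0.069, the last without control replicate 2. With B. chinense in A549 they were 1 to 3 and 9 to 14 (9 without B. chinense replicate 2), -0.22 to -0.18 and -0.12 to -0.04, and with P. umbellatus 2 to 3 and 6 to 9, -0.12 to -0.10 and -0.19 to -0.10. In Huh7, P. chinensis gave 0 to 1 and 7 to 14 (14 without P. umbellatus replicate 2), -0.25 to -0.20 and -0.20 to -0.18. B. chinense gave 0 and 1 to 11 (1 without B. chinense replicate 2, 11 without P. umbellatus replicate 2), -0.27 to -0.22 and -0.096 to -0.026. P. umbellatus gave 1 to 5 (1 without control replicate 2, 5 without P. umbellatus replicate 3) and 6 to 10, -0.068 to 0.019 and -0.15 to -0.08. Against the other herbs P. chinensis gave 0 and 0 in A549 and 0 to 2 and 3 to 13 in Huh7, 3 without P. chinensis replicate 3. The differences between lines were 5 to 9 and 0 to 2, 2 to 3 and 0 to 1, and 3 to 5 and 2 to 6, and between the control lines 13 to 16 and 12 to 16.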
